A study of Mus musculus with 4 samples.

Results

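The vascular endothelial growth factor (VEGF) ligands and receptors were followed through single-cell transcriptomes of the meninges that cover the cerebellum. The set was chosen by gene symbol, and it holds 9 of the 32285 measured genes: the ligands Vegfa, Vegfb, Vegfc and Pgf, the receptor kinases Kdr, Flt1 and Flt4, and the co-receptors Nrp1 and Nrp2. The choice was made with earlier results of these data known. Each symbol matched 1 feature. Young mice of 2 genotypes were compared, NdpKO and NdpWT, with 2 libraries each. Both groups were heterozygous for Neurod2-SmoA1 (1 allele) and of C57BL/6 background. SmoA1 is an activated form of the Hedgehog transducer Smoothened, here under the Neurod2 promoter, which is active in cerebellar granule neurons, so the NdpWT libraries are not from normal cerebella. Age was 6 to 8 days after birth in the sample fields and 7 to 9 days in the protocol. Each library pooled 5 cerebella, and the 4 libraries came from 4 runs of 3 litters each, in which an NdpWT run was matched by litter to an NdpKO run. The sources used here do not state which part of Ndp the knockout allele lacks.

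VEGF-A binds the kinases KDR (VEGFR2) and FLT1 (VEGFR1). KDR carries most of its growth and permeability signal in endothelium, while FLT1, also made in a soluble form, binds the ligand tightly and signals weakly. Among the receptor kinases, VEGF-B and PlGF, the product of Pgf, bind FLT1 only, and VEGF-C binds FLT4 (VEGFR3) and, after processing, KDR. Neuropilin-1 and neuropilin-2 lack a kinase and act as co-receptors for VEGFs and as receptors for class 3 semaphorins. Norrin, the product of Ndp, is a ligand of Frizzled4 and its co-receptors on endothelial cells, where it activates beta-catenin and serves vessel growth and the blood-brain barrier.

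Counting used tags from the 3′ end of transcripts, so splice forms of Vegfa and the soluble and membrane forms of Flt1 were not separated by the gene counts. The 9 genes lie on 7 chromosomes of GRCm38 (the same assembly as mm10). Vegfa spans chr17:46016993-46032369 on the minus strand, Nrp1 spans chr8:128358604-128503363 on the plus strand, and Nrp2 spans chr1:62703285-62818695 on the plus strand. Nrp2 overlaps an antisense gene, Gm29083, which was counted as a separate feature. The remaining members overlap no other counted gene.

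After filtering, 5578 and 10645 cells remained in NdpKO replicates 1 and 2, and 9049 and 12528 in NdpWT replicates 1 and 2, 37800 in all. NdpKO replicate 1 stood apart: 44.1% of its barcodes passed the filter, against 66.0% in NdpKO replicate 2 and 64.8% and 67.0% in NdpWT replicates 1 and 2, 21.8% were left out for their mitochondrial share, and its median of 14290 UMIs (unique molecules counted) per cell was above the 8482, 9456 and 7220 of the others. Any pair of libraries shared 15 to 47 cell barcodes. Ndp had 40 and 50 UMIs over all cells of the NdpKO libraries, against 200 and 138 in the NdpWT libraries. Since a 3′ tag can lie outside the deleted part, these remaining tags do not test the label. Cell classes were rebuilt from marker genes, so each name stands for cells like that type. The 12 endothelial markers summed to 10092 and 10593 CPM (the usual scaling of a gene's UMIs to the total of its class in that library) in endothelial cells of the NdpKO libraries, and to 9034 and 10743 CPM in those of the NdpWT libraries. Fibroblasts and arachnoid barrier cells, which build the leptomeninges, gave 6375 and 2128 cells.

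The members fell to different cell classes. Levels are given as the mean CPM and SD over the 4 libraries, for the 11 classes in which each library had 50 cells or more, as a description with no test. Levels of different genes are not set against each other.

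**Figure D1:**
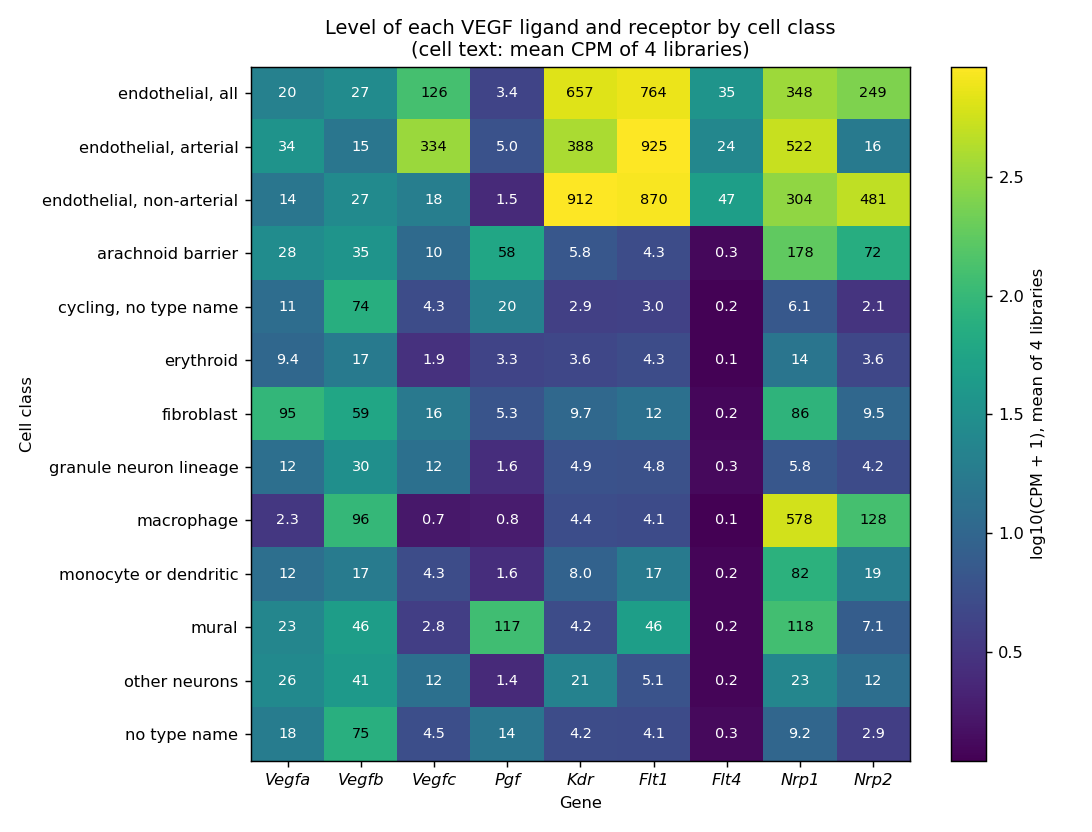
Mean CPM over 4 libraries of each of the 9 genes (columns) in the cell classes and in 2 endothelial subtypes (rows). The colour is log10(CPM + 1) and the cell text is the CPM. The 3 receptor kinases are highest in endothelial cells, Vegfa in fibroblasts (94.97 CPM), Vegfb and Nrp1 in macrophages and Pgf in mural cells (117 CPM).

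Among the ligands, Vegfa was highest in fibroblasts, at 94.97 ± 15.8 CPM, and fibroblasts held 67.3% and 67.8% of all Vegfa UMIs in the NdpKO libraries and 66.4% and 69.5% in the NdpWT libraries. It was next in arachnoid barrier cells at 28.0 ± 3.41 CPM, whose range over libraries did not meet that of fibroblasts. From there down to erythroid cells each class overlapped its neighbour, and macrophages were lowest and apart, at 2.26 ± 0.213 CPM. Endothelial cells had 20.2 ± 8.26 CPM.

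Vegfb was spread more evenly. It was highest in macrophages at 96.2 ± 12.8 CPM, a range that overlapped that of cycling cells (61.1 to 86.8 CPM) and no other, and lowest in erythroid cells at 16.8 ± 3.66 CPM. Endothelial cells had 27.3 ± 1.27 CPM.

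Vegfc was highest in endothelial cells, at 126 ± 28.1 CPM, and the next class, fibroblasts, had 15.9 ± 1.91 CPM, with no overlap. Within the endothelium Vegfc was arterial: arterial cells had 334 ± 31.2 CPM and non-arterial cells 18.4 ± 9.96 CPM, a ratio of 18.2, in the same direction in 4 of 4 libraries. Pgf was highest in mural cells, the pericytes and smooth muscle of vessel walls, at 117 ± 17.9 CPM. Arachnoid barrier cells came next at 58.4 ± 5.52 CPM, then cycling cells at 20.1 ± 2.37 CPM. These 3 ranges were apart from each other. Pgf was low in endothelial cells, at 3.41 ± 1.18 CPM, with 22 and 18 UMIs in the NdpKO libraries against 6 and 41 in the NdpWT libraries.

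Among the receptors, Kdr averaged 657 ± 111 CPM in endothelial cells, which held 84.9% to 88.3% of its UMIs in each library. The next class was other neurons, at 20.9 ± 7.36 CPM. Flt1 averaged 764 ± 52.7 CPM in endothelial cells and 46.3 ± 17.3 CPM in mural cells, and these ranges and that of the next class did not overlap. Erythroid cells, which should lack both kinases, had 3.64 ± 3.20 CPM of Kdr and 4.30 ± 2.62 CPM of Flt1. Arachnoid barrier cells, macrophages, granule neurons, cycling cells and cells with no type name had Kdr and Flt1 levels that overlapped those of erythroid cells, so their counts cannot be told apart from free RNA in the droplets. Flt4 was endothelial, at 35.3 ± 7.56 CPM, and reached at most 0.857 CPM in any library of any other of the 11 classes.

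The co-receptors reached further. Nrp1 was highest in macrophages at 578 ± 33.6 CPM, then in endothelial cells at 348 ± 61.0 CPM, arachnoid barrier cells at 178 ± 12.05 CPM and mural cells at 118 ± 9.72 CPM, and none of these 4 ranges overlapped. Nrp2 was highest in endothelial cells at 249 ± 33.5 CPM. Macrophages, at 128 ± 29.1 CPM, overlapped arachnoid barrier cells, at 72.4 ± 22.9 CPM, and both lay apart from monocytes or dendritic cells at 18.7 ± 7.91 CPM.

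Endothelial cells numbered 311 and 514 in the NdpKO libraries and 269 and 1068 in the NdpWT libraries. Their sub-clusters gave arterial cells (104 and 160 in the NdpKO libraries, 68 and 263 in the NdpWT libraries) and non-arterial cells (83 and 198 in the NdpKO libraries, 116 and 453 in the NdpWT libraries). The non-arterial group joined a capillary, a venous and an unnamed sub-cluster, the last led by Pcdh17, Piezo2 and Col15a1. The 9 members took no part in the clustering. Their subtype levels are a description. Nrp2 was non-arterial, with 481 ± 121 CPM against 16.2 ± 3.91 CPM in arterial cells. Kdr was also higher in non-arterial cells, at 912 ± 107 CPM against 388 ± 61.3 CPM in arterial cells, as was Flt4, at 47.3 ± 9.56 CPM against 23.5 ± 6.48 CPM. Nrp1 ran the other way, with 522 ± 32.8 CPM in arterial cells and 304 ± 88.0 CPM in non-arterial cells. Flt1 did not separate them, at 925 ± 70.7 CPM in arterial and 870 ± 147 CPM in non-arterial cells, with overlapping ranges.

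Vegfa was higher in NdpKO than in NdpWT endothelial cells. The difference was larger in non-arterial than in arterial cells, and in non-arterial cells Nrp1 and Nrp2 were higher too. The genotypes were compared by edgeR's quasi-likelihood test on UMIs summed per library, with Benjamini-Hochberg adjustment over all genes tested in that class, and a call means an adjusted p below 0.05. With 2 libraries a genotype, an exact permutation test of 1 gene cannot give a two-sided p below 0.333, so the tests rest on the model. All log2 changes are NdpKO over NdpWT.

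In endothelial cells as a whole, Vegfa had 29.0 and 25.4 CPM in the NdpKO libraries (175 and 137 UMIs), against 12.3 and 14.1 CPM in the NdpWT libraries (39 and 122 UMIs). Both NdpKO libraries lay above both NdpWT libraries. Vegfa rose by 1.01 ± 0.20 on the log2 scale (SE; 95% interval 0.63 to 1.39; adjusted p = 0.0206). It was the 1 member called of 9 tested, and 2.53% of the 12559 genes tested in endothelial cells were called. The call was lost with DESeq2 (adjusted p = 0.0707) and without NdpKO replicate 1 (adjusted p = 0.0536), with log2 changes between 0.91 and 1.18 over 11 alternatives. The 12 fibroblast markers, from cells rich in Vegfa, summed to 6239 and 5129 CPM in endothelial cells of the NdpKO libraries and to 2888 and 3537 CPM in those of the NdpWT libraries, with 0 markers at 0. Without Mgp, which arterial cells also express, the other 11 summed to 1983 and 1232 CPM in the NdpKO libraries and 700 and 1111 CPM in the NdpWT libraries, and in fibroblasts to between 17957 and 22594 CPM. Arachnoid barrier cells were next in Vegfa among the 11 classes with 50 cells or more in each library. The 10 arachnoid barrier markers summed to 1909 and 1437 CPM in the NdpKO libraries and to 696 and 937 CPM in the NdpWT libraries. The genotypes did not overlap in these markers. Their part in the Vegfa change was not tested. Without the sub-clusters that carried markers of other cell types the Vegfa change was 1.18, with an adjusted p of 0.00904.

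The other members were not called in endothelial cells as a whole. Vegfc had 152 and 146 CPM in the NdpKO libraries and 116 and 91.1 CPM in the NdpWT libraries, a log2 difference of 0.52 ± 0.15 (adjusted p = 0.116). Nrp1 had 378 and 419 CPM in the NdpKO libraries and 305 and 290 CPM in the NdpWT libraries, a difference of 0.41 ± 0.13 (adjusted p = 0.180). Kdr had 558 and 566 CPM in the NdpKO libraries and 740 and 766 CPM in the NdpWT libraries, a difference of -0.44 ± 0.14 (adjusted p = 0.151). In these 3 genes the genotypes did not overlap, for which the share of all genes was not counted. For 1 gene such an order has an exact two-sided permutation p of 0.333 here. At an unadjusted edgeR p below 0.05 stood 4 of 9 members, Vegfa among them, and 13.1% of all genes tested. Both Vegfc and Nrp1 are higher in arterial than in non-arterial cells and Kdr is lower. The summed arterial markers of endothelial cells were 16893 and 12499 CPM in the NdpKO libraries, against 8657 and 8810 CPM in the NdpWT libraries. The part of this shift in cell makeup in the 3 differences was not tested. The log2 differences of Vegfc, Nrp1 and Kdr were 0.03, 0.08 and -0.09 within arterial cells, and 0.48, 0.74 and -0.21 within non-arterial cells. Vegfb, Pgf, Flt1, Flt4 and Nrp2 had log2 differences between -0.29 and 0.06, with adjusted p of at least 0.696.

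**Figure D2:**
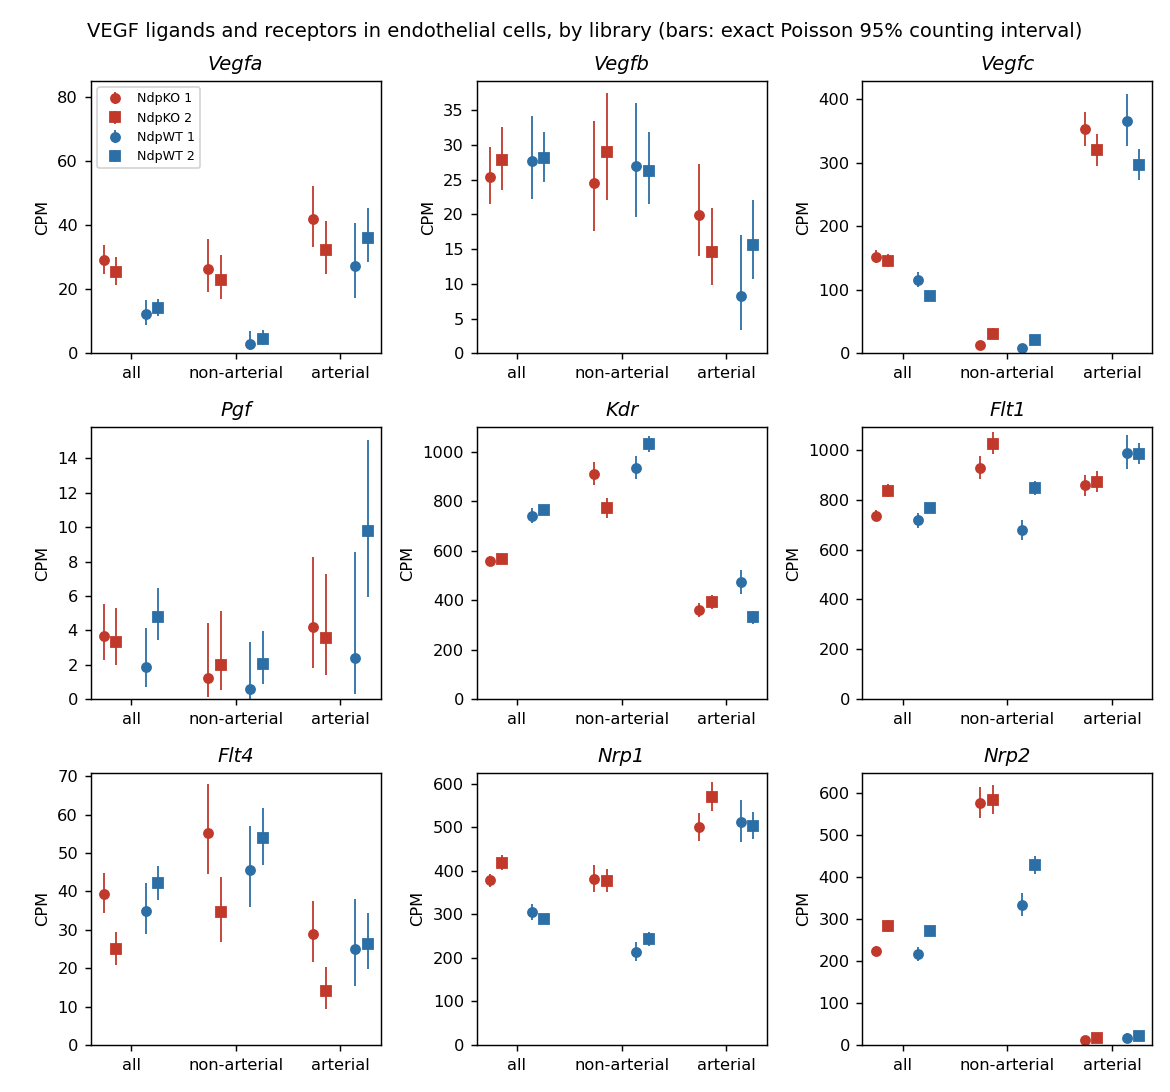
CPM of each gene in all, non-arterial and arterial endothelial cells, 1 point per library, NdpKO left of NdpWT. Bars are exact Poisson 95% intervals, which cover counting error only. In non-arterial cells the NdpKO points of Vegfa, Nrp1 and Nrp2 lie above both NdpWT points, while in arterial cells the Vegfa points of the 2 genotypes overlap.

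In non-arterial cells, Vegfa had 26.4 and 23.0 CPM in the NdpKO libraries (43 and 46 UMIs), against 3.00 and 4.55 CPM in the NdpWT libraries (5 and 18 UMIs). Both NdpKO libraries lay above both NdpWT libraries. Vegfa rose by 2.61 ± 0.35 (95% interval 1.93 to 3.30; edgeR adjusted p = 0.000985), and it was called under 11 of 11 alternatives.

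Nrp1 had 382 and 378 CPM in non-arterial cells of the NdpKO libraries, against 214 and 243 CPM in those of the NdpWT libraries. The genotypes were apart, and Nrp1 rose by 0.74 ± 0.15 (95% interval 0.45 to 1.04; edgeR adjusted p = 0.0134). The call was lost without NdpWT replicate 1 (adjusted p = 0.0791) and without the unnamed sub-cluster (log2 difference 0.37, adjusted p = 0.524).

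Nrp2 had 578 and 585 CPM in non-arterial cells of the NdpKO libraries, against 334 and 429 CPM in those of the NdpWT libraries. Nrp2 rose by 0.62 ± 0.16 (95% interval 0.30 to 0.94; edgeR adjusted p = 0.0488). This call sits at the threshold: it was kept under 5 of 11 alternatives, with log2 changes between 0.46 and 0.84, and lost with DESeq2, without NdpKO replicate 1, NdpKO replicate 2 or NdpWT replicate 1, with the members kept in the clustering, and with stricter filters on cells (adjusted p of 0.0506 to 0.363).

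In all, 3 of 8 members tested were called in non-arterial cells, all 3 higher in NdpKO, where 4.68% of 9943 genes were called, 2.56% higher and 2.11% lower. The NdpKO libraries also differed from the NdpWT libraries in which non-arterial sub-cluster held most cells. Capillary cells numbered 6 and 38 in the NdpKO libraries and 82 and 279 in the NdpWT libraries. The unnamed sub-cluster had 59 and 70 cells in the NdpKO libraries and 9 and 23 in the NdpWT libraries, and the venous one 18 and 90 in the NdpKO libraries and 25 and 151 in the NdpWT libraries. These sub-clusters were too small in some libraries for a test, so their values are given as a description.

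Within capillary cells Vegfa was near 0 in both genotypes, with 0 and 2 UMIs in the NdpKO libraries (0 and 3.83 CPM) and 2 and 5 UMIs in the NdpWT libraries (1.51 and 2.04 CPM). The 0 UMIs of NdpKO replicate 1 came from 6 cells and allow up to 22.0 CPM (3 UMIs). In venous cells Vegfa had 12.3 and 33.4 CPM in the NdpKO libraries (4 and 26 UMIs), against 7.48 and 8.20 CPM in the NdpWT libraries (2 and 11 UMIs). In the unnamed sub-cluster it had 33.5 and 25.8 CPM in the NdpKO libraries (39 and 18 UMIs), against 13.3 and 12.8 CPM in the NdpWT libraries (1 and 2 UMIs). The NdpKO libraries were higher in the venous and unnamed sub-clusters, and the 2 genotypes overlapped in the capillary one. With the unnamed sub-cluster left out, Vegfa was still called, at 2.23 ± 0.53 with an edgeR adjusted p of 0.0426. The genotypes still differed then in their mix of cells, with 6 and 38 capillary beside 18 and 90 venous cells in the NdpKO libraries. The NdpWT libraries had 82 and 279 capillary beside 25 and 151 venous cells. The part of sub-cluster makeup in the Vegfa change was not tested.

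For Nrp2 the venous cells were apart, with 976 and 888 CPM in the NdpKO libraries against 647 and 581 CPM in the NdpWT libraries. Capillary cells overlapped, with 146 and 316 CPM in the NdpKO libraries and 276 and 350 CPM in the NdpWT libraries. Without the unnamed sub-cluster the Nrp2 change was 0.84 ± 0.17 (edgeR adjusted p = 0.0221). For Nrp1, capillary cells had 212 and 397 CPM in the NdpKO libraries against 218 and 240 CPM in the NdpWT libraries, and venous cells had 222 and 313 CPM in the NdpKO libraries against 157 and 235 CPM in the NdpWT libraries. Both pairs of groups overlapped. The unnamed sub-cluster was richer in Nrp1, at 446 and 435 CPM in the NdpKO libraries and 345 and 365 CPM in the NdpWT libraries, and it held more of the NdpKO cells.

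**Figure D3:**
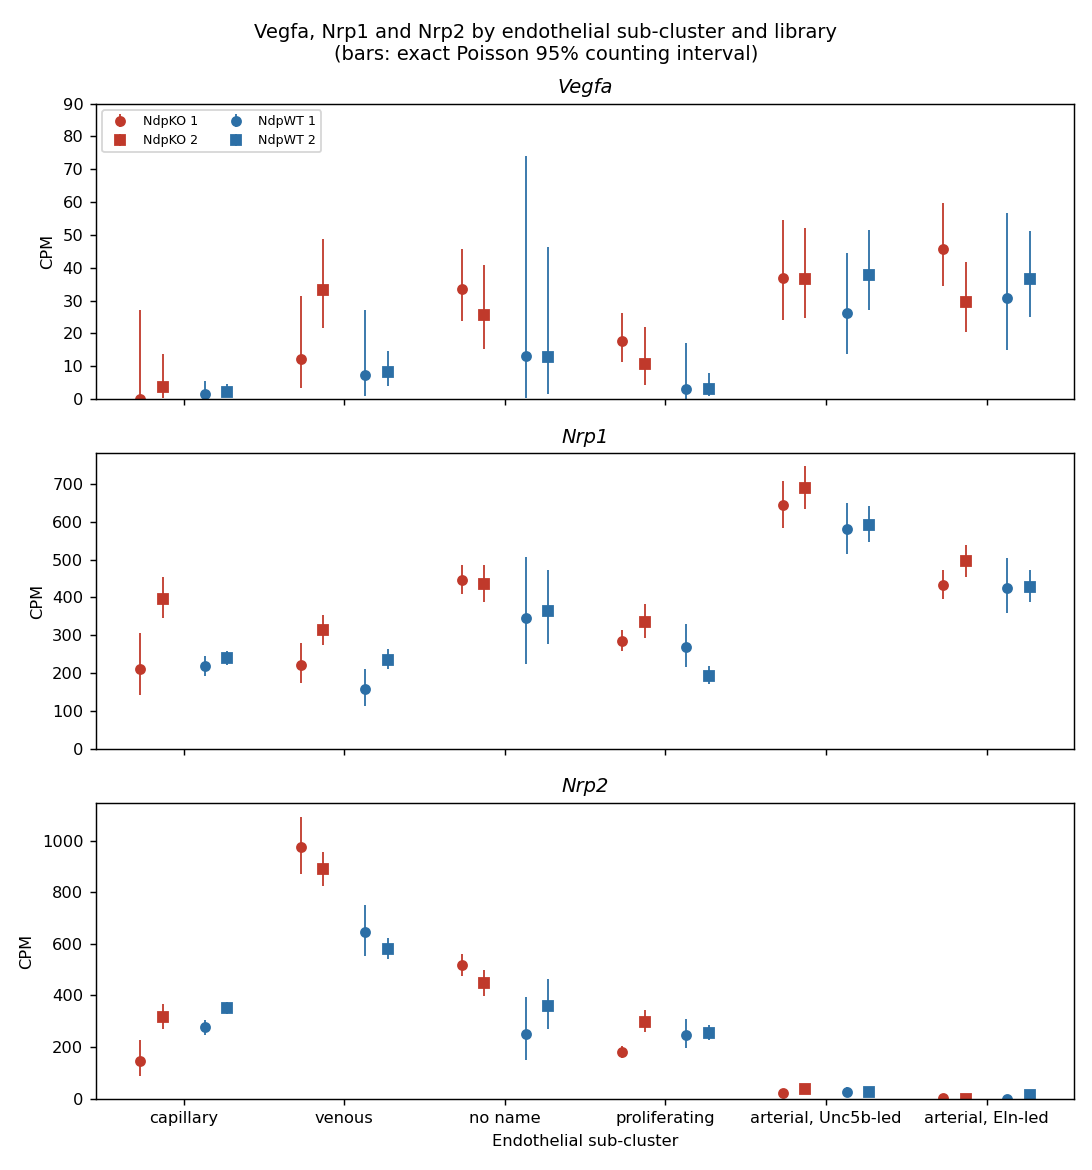
CPM of Vegfa, Nrp1 and Nrp2 in 6 endothelial sub-clusters, 1 point per library, NdpKO left of NdpWT, with exact Poisson 95% counting intervals. Vegfa is near 0 in capillary cells of both genotypes and higher in the NdpKO points of the venous, unnamed and proliferating sub-clusters. Nrp2 is highest in venous cells.

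Proliferating endothelial cells were too few for a test (41 and 55 cells in the NdpKO libraries, 24 and 110 in the NdpWT libraries). Vegfa had 17.7 and 10.6 CPM in those of the NdpKO libraries (24 and 7 UMIs), against 3.05 CPM in each NdpWT library (1 and 4 UMIs). Both NdpKO values lay above the NdpWT ones.

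Markers of other cell types in the non-arterial group were set beside these changes. The 12 fibroblast markers, 0 of which were at 0, summed to 791 and 1244 CPM in the NdpKO libraries and to 492 and 850 CPM in the NdpWT libraries, and the genotypes overlapped. Without Mgp the other 11 summed to 704 and 667 CPM in the NdpKO libraries and to 384 and 631 CPM in the NdpWT libraries. Both NdpKO sums lay above both NdpWT sums. Col15a1, a leading gene of the unnamed sub-cluster, had 337 and 129 CPM in the NdpKO libraries and 58.1 and 65.5 CPM in NdpWT. In each of the other fibroblast markers the genotypes overlapped. The 10 arachnoid barrier markers summed to 368 and 1048 CPM in the NdpKO libraries and to 289 and 584 CPM in the NdpWT libraries, and overlapped. The 14 arterial markers summed to 604 and 1504 CPM in the NdpKO libraries and to 525 and 750 CPM in the NdpWT libraries, and also overlapped. The arterial group's own sum was 27960 to 39818 CPM. The 12 capillary markers were lower in NdpKO, at 2592 and 2842 CPM against 6241 and 4535 CPM in NdpWT, and the 10 tip cell markers higher, at 824 and 657 CPM against 517 and 493 CPM in NdpWT. Erythroid and mural markers were also lower in NdpKO: the 9 erythroid markers summed to 710 and 1479 CPM against 4842 and 6044 CPM in NdpWT, and the 12 mural markers to 36.3 and 70.5 CPM against 174 and 109 CPM in NdpWT. The 8 lymphatic markers summed to 78.0 and 74.5 CPM in NdpKO against 194 and 176 CPM in NdpWT, and the 12 astroglia markers to 41.8 and 98.0 CPM against 289 and 117 CPM in NdpWT. The 13 granule neuron markers summed to 88.5 and 161 CPM in NdpKO against 233 and 214 CPM in NdpWT, and the 8 Schwann cell markers to 18.4 and 24.0 CPM against 61.7 and 55.1 CPM in NdpWT. Venous, macrophage, mast cell, neutrophil, lymphoid, other neuron and cycling markers were likewise lower in both NdpKO libraries, and B cell markers higher. Their part in the changes of Vegfa, Nrp1 and Nrp2 was not tested.

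The promoters of the 3 genes called in non-arterial cells are shown because these genes were higher together. They are RefSeq sequences of GRCm38.p6, from 250 bases before to 50 after a gene's start, read 5′ to 3′ on the gene's strand, and each of the 9 members had an entry. Vegfa had 2 entries, of which the first is shown. Capitals mark GC boxes (GGGCGG or its reverse complement CCGCCC, the core bound by SP factors) and the TCF/LEF core (CTTTGA or TCAAAG), through which beta-catenin acts. The windows lie at chr17:46032328-46032627 on the minus strand for Vegfa, chr8:128358823-128359122 on the plus strand for Nrp1 and chr1:62703067-62703366 on the plus strand for Nrp2.
Vegfa: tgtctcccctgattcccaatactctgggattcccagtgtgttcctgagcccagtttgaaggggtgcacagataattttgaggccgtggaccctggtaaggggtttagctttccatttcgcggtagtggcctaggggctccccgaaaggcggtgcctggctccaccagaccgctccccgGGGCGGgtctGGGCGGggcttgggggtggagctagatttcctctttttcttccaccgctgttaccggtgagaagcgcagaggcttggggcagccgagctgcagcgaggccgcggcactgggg
Nrp1: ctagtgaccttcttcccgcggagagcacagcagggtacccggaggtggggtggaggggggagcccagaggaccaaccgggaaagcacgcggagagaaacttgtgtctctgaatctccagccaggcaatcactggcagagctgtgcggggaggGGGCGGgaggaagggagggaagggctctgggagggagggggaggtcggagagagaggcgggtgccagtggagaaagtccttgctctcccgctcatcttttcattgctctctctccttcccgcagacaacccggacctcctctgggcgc
Nrp2: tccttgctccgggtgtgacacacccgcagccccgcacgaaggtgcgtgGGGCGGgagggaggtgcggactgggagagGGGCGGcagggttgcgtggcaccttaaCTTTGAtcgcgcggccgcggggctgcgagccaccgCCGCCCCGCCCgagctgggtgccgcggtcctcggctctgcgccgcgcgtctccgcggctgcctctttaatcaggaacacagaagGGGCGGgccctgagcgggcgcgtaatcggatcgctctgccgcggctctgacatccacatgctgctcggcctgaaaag
The Vegfa window holds 2 GC boxes 4 bases apart, the Nrp1 window 1 and the Nrp2 window 5, of which 2 share a base. A GC box is found in 35.9% of the 27025 promoters of the table. The TCF/LEF core occurs once, in the Nrp2 window, and is found in 16.2% of all promoters. The hypoxia response core (ACGTG or CACGT) is in 0 of these 3 windows and in 19.7% of all promoters, while the other Vegfa entry, not shown, holds it once. These matches describe the letters of the windows and say nothing of binding.

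In arterial cells none of the 8 members tested was called by edgeR, with 0 at an unadjusted p below 0.05 and 0 called by DESeq2, where 0.228% of 10098 genes were called. Vegfa had 41.9 and 32.3 CPM in the NdpKO libraries and 27.2 and 36.1 CPM in the NdpWT libraries, and the genotypes overlapped (log2 difference 0.18, 95% interval -0.32 to 0.68). Vegfc had 353 and 320 CPM in the NdpKO libraries and 366 and 297 CPM in the NdpWT libraries (log2 difference 0.03, 95% interval -0.30 to 0.36). Flt1 had 857 and 872 CPM in the NdpKO libraries against 989 and 984 CPM in the NdpWT libraries, a log2 difference of -0.19 (95% interval -0.52 to 0.14) in which the genotypes did not overlap.

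**Figure D4:**
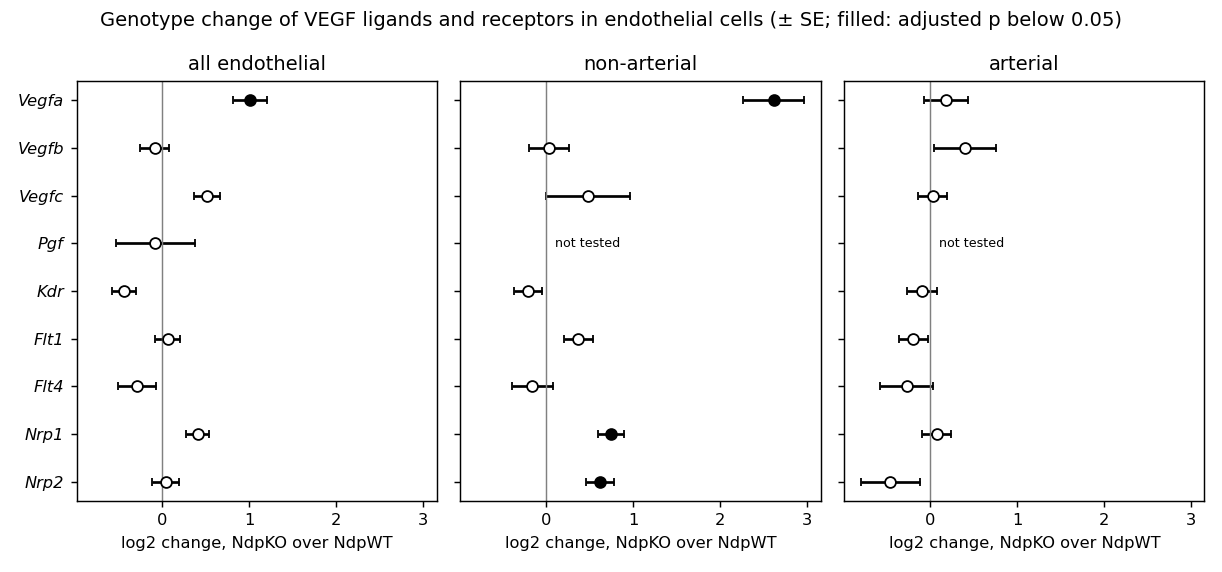
Log2 change (NdpKO over NdpWT) ± SE of each gene in all, non-arterial and arterial endothelial cells, with filled points where the edgeR adjusted p was below 0.05. Filled are Vegfa in all endothelial cells (1.01) and Vegfa, Nrp1 and Nrp2 in non-arterial cells (2.61, 0.74 and 0.62). Pgf was under the count filter in both subtypes.

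Whether the genotype change differed between the subtypes was tested as the interaction of subtype and genotype, with library as a block. It was called for 2 of 8 members, while 1.04% of 10853 genes were called. For Vegfa the change in non-arterial cells exceeded that in arterial cells by 2.44 ± 0.36 (log2, 95% interval 1.74 to 3.14; edgeR adjusted p = 0.00402), a call lost without NdpWT replicate 2 (adjusted p = 0.126). For Nrp1 the excess was 0.65 ± 0.14 (edgeR adjusted p = 0.0350), and it was kept under 3 of 7 alternatives. Without NdpKO replicate 1, NdpWT replicate 1 or NdpWT replicate 2 the Nrp1 adjusted p was 0.127, 0.372 and 0.121, and without the unnamed sub-cluster it was 0.736. Flt1 (0.55 ± 0.13, edgeR adjusted p = 0.0589) and Nrp2 (1.02 ± 0.26, edgeR adjusted p = 0.0816) did not pass. The part of non-arterial sub-cluster makeup in these differences was not tested.

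The receptor kinases themselves were not called in non-arterial cells. Kdr had 911 and 772 CPM in the NdpKO libraries and 934 and 1031 CPM in the NdpWT libraries (log2 difference -0.21, 95% interval -0.52 to 0.11). Flt1 had 928 and 1025 CPM in the NdpKO libraries and 677 and 847 CPM in the NdpWT libraries, a difference of 0.37 ± 0.16 that did not pass (edgeR adjusted p = 0.326). Flt4 had 55.3 and 34.5 CPM in the NdpKO libraries and 45.6 and 53.9 CPM in the NdpWT libraries, and the genotypes overlapped. Vegfb and Vegfc had log2 differences of 0.03 and 0.48, with adjusted p of at least 0.779.

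Outside the endothelium no member was called in any of 10 classes by edgeR. The share of genes called there was 0.0385% in fibroblasts, 0.0278% in mural cells, 0.00804% in macrophages and 0% in arachnoid barrier cells, cycling cells, erythroid cells, granule neurons, monocytes or dendritic cells, other neurons and the cells with no type name. With few calls of any kind in these classes, the members' 0 is no more than their background. At an unadjusted p below 0.05 stood 11 of 71 tests of members in these classes, where the share of all genes at that level ran from 2.56% in cycling cells to 9.23% in fibroblasts, and DESeq2 called 1, Nrp2 in arachnoid barrier cells.

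**Figure D5:**
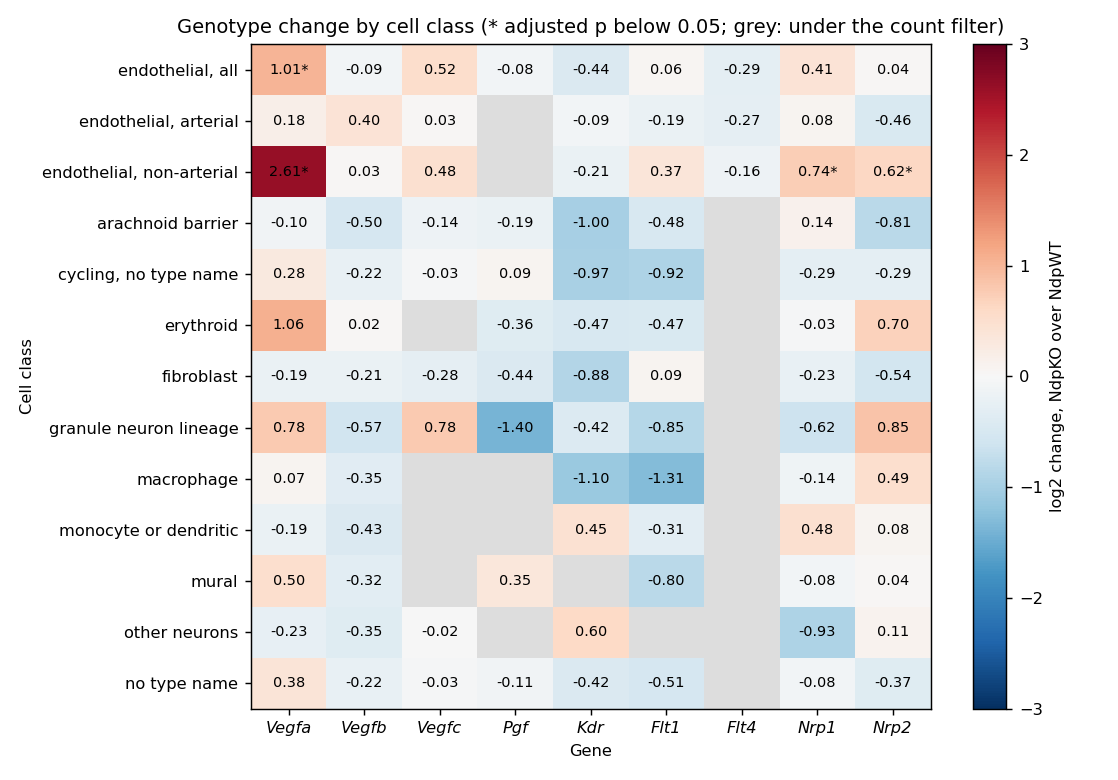
Log2 change (NdpKO over NdpWT) of each gene in the 13 classes and subtypes tested, as colour and number, with an asterisk where the edgeR adjusted p was below 0.05 and grey where counts were under the filter. The 4 asterisks stand in the endothelial rows.

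Fibroblasts, the main Vegfa class, gave a log2 difference of -0.19 for Vegfa (95% interval -0.54 to 0.15). In arachnoid barrier cells Nrp2 had 50.4 and 55.1 CPM in the NdpKO libraries against 88.6 and 95.5 CPM in the NdpWT libraries. The genotypes were well apart, with a log2 difference of -0.81 ± 0.12, but the edgeR adjusted p was 0.146, and it ran from 2.21e-05 to 0.786 over 10 alternatives, 3 of which called it. In macrophages Nrp2 had 143 and 156 CPM in the NdpKO libraries and 90.1 and 120 CPM in the NdpWT libraries (0.49 ± 0.15, edgeR adjusted p = 0.663).

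In mural cells Flt1 had 31.1 and 36.1 CPM in the NdpKO libraries and 48.2 and 69.9 CPM in the NdpWT libraries, a difference of -0.80 ± 0.22 that did not pass (edgeR adjusted p = 0.383). Pgf in mural cells had a difference of 0.35 (edgeR adjusted p = 0.759). Kdr in fibroblasts had 7.41 and 6.32 CPM in the NdpKO libraries and 9.57 and 15.5 CPM in the NdpWT libraries (-0.88 ± 0.23, edgeR adjusted p = 0.268). Kdr in erythroid cells had 1.17 and 5.43 CPM in the NdpKO libraries and 0.729 and 7.25 CPM in the NdpWT libraries. The ranges of these 2 classes overlapped, but fibroblasts were higher within each library. Vegfb was lower in NdpKO in 9 of the 10 classes, by log2 differences of down to -0.57, with edgeR adjusted p of at least 0.657. The 10 classes come from the same 4 libraries, so they are not independent. The share of all genes lower in as many classes was not counted.

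The genes that carry, limit or answer VEGF signals were counted in endothelial cells by 8 lists, beside 1.1% of all tested genes that rose and 1.43% that fell. These lists, also used by subtype below, were chosen with earlier results of these data known. Their counts beside the shares of all genes are a description. Of 42 tested genes of receptor signal transduction, from PLCγ to MAP kinases and AKT, 0 were called by edgeR, with 5 at an unadjusted p below 0.05 and 0 called by DESeq2. Their median log2 difference was 0.11, against -0.00081 for all genes, and Mef2c, an endothelial transcription factor downstream of MAP kinases, had the lowest p (0.39 ± 0.13, adjusted p = 0.188). Of 21 genes of receptor trafficking and phosphatases 1 rose and 1 fell, with a median of 0.12. Spry4, an inhibitor of receptor kinase signalling to ERK, rose, with 23.4 and 20.4 CPM in the NdpKO libraries and 11.3 and 9.27 CPM in the NdpWT libraries (1.11 ± 0.22, adjusted p = 0.0244). Dab2, an endocytic adaptor, fell to 130 and 119 CPM in the NdpKO libraries, against 188 and 176 CPM in the NdpWT libraries (-0.56 ± 0.13, adjusted p = 0.0482). With DESeq2 both calls were lost, at an adjusted p of 0.0898 for Spry4 and 0.0710 for Dab2.

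Of 24 VEGF-induced endothelial genes 2 rose and 1 fell, with a median of 0.36. Unc5b, a netrin receptor, had 87.0 and 80.8 CPM in the NdpKO libraries and 57.6 and 47.6 CPM in the NdpWT libraries (0.67 ± 0.15, edgeR adjusted p = 0.0419), and Trp53i11 rose by 0.71 ± 0.14 (adjusted p = 0.0194). The Unc5b call was lost with DESeq2 (adjusted p = 0.0823), which called 5 genes of this list. Apln, the peptide ligand of the apelin receptor, fell to 36.8 and 51.7 CPM in the NdpKO libraries, against 77.5 and 76.8 CPM in the NdpWT libraries (-0.82 ± 0.17, edgeR adjusted p = 0.0288). Of 9 class 3 semaphorins and plexins 1 rose, Sema3f, a secreted ligand of neuropilin-2, with 34.0 and 21.9 CPM in the NdpKO libraries and 12.6 and 12.5 CPM in the NdpWT libraries (1.15 ± 0.24, edgeR adjusted p = 0.0299). The list median was 0.48.

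Of 17 genes of ligand processing, storage and inhibition 0 were called by edgeR and 2 by DESeq2, with 8 at an unadjusted p below 0.05 and a median of 0.44. Hspg2, the basement membrane proteoglycan perlecan, had the lowest p (0.72 ± 0.18, adjusted p = 0.0815). Of 27 hypoxia and HIF target genes 2 rose and 0 fell, with a median of 0.07. They were Egln3, a HIF prolyl hydroxylase, with 9.96 and 5.75 CPM in the NdpKO libraries and 1.89 and 1.16 CPM in the NdpWT libraries (2.47 ± 0.47, edgeR adjusted p = 0.0188), and Ndrg1, a stress-responsive gene (0.83 ± 0.17, adjusted p = 0.0242). Of 8 lymphatic markers 2 fell, Mmrn1 (-1.85 ± 0.19, edgeR adjusted p = 0.000360) and the chemokine Ccl21a (-2.59 ± 0.48, adjusted p = 0.0379), while Prox1, which defines lymphatic cells, was low throughout, at 2.49 and 4.08 CPM in the NdpKO libraries and 3.46 and 4.06 CPM in the NdpWT libraries. Of 16 dissociation genes 0 were called by edgeR and 1 by DESeq2, with 4 at an unadjusted p below 0.05. Hspa1a, a heat shock chaperone, had the lowest p (0.76 ± 0.19, edgeR adjusted p = 0.0674). Several of these calls were lost when a single library was left out. Without NdpKO replicate 1 the calls of Spry4, Dab2, Apln, Trp53i11, Unc5b, Sema3f and Egln3 were lost (adjusted p of 0.0515 to 0.183), without NdpWT replicate 2 those of Spry4 (0.0793) and Unc5b (0.151), and Dab2 was also lost without NdpKO replicate 2 (0.141) or NdpWT replicate 1 (0.0889). The calls of Ndrg1, Mmrn1 and Ccl21a were kept each time.

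In arterial cells 0 genes were called in each of the 8 lists by edgeR and by DESeq2, with 10 list genes at an unadjusted p below 0.05. In non-arterial cells 2.56% of all tested genes rose and 2.11% fell. There 7 of 21 VEGF-induced genes rose and 0 fell (median 0.52, against 0.0024 for all genes). Among them was Cd34, a sialomucin, at 739 and 667 CPM in the NdpKO libraries and 409 and 403 CPM in the NdpWT libraries. The 10 tip cell markers given above for these cells all belong to this list, so the observations are not separate. This list also shares Adm with the hypoxia list and Adamts1 with the ligand processing list. Without the unnamed sub-cluster 244 genes were called in non-arterial cells, against 465 with it. Of 25 hypoxia and HIF target genes 5 rose and 0 fell (median 0.24), and one of these was Hif1a (0.97 ± 0.16, edgeR adjusted p = 0.00434). Of 10 genes of ligand processing and storage 3 rose, of 40 genes of receptor signal transduction 2 rose, and of 6 semaphorins and plexins 1 rose. Of 21 genes of receptor trafficking and phosphatases 1 rose and 1 fell, and of 4 lymphatic markers 2 fell. DESeq2 called 6 VEGF-induced genes there, 3 hypoxia genes, 2 each of ligand processing, signal transduction and lymphatic genes, 1 dissociation gene, and 0 of the semaphorin and trafficking lists. Of 16 dissociation genes 1 rose, the early response gene Fos (1.20 ± 0.20, edgeR adjusted p = 0.00445), and their median was 0.44. In direction 15 of the 16 were higher in NdpKO, beside 50.2% of all genes tested there. At an unadjusted edgeR p below 0.05 stood 5 of the 16, beside 13.8% of all genes. Cd34, Hif1a and Fos were named after their values were seen.

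The genes whose levels followed each member most closely over the 11 classes were, by Pearson's r of log2(mean CPM + 1) among 12525 genes, as follows. For Kdr they were Cda, Acer2 and Aplnr (r = 0.982 to 0.975), for Flt1 Emcn, Irx3 and She (0.974 to 0.971), and for Flt4 Nr5a2, Depp1 and Dipk2b (all 0.997). For Nrp1 they were Txnip, Cebpd and Paqr7 (0.977 to 0.959) and for Nrp2 Plk2, Cracr2b and Dennd2c (0.971 to 0.937). For Vegfa they were Mir100hg, Arhgef40 and Rbms3 (0.906 to 0.897), for Vegfb Nme4, Tmem106c and Wdr36 (0.904 to 0.879), for Vegfc Tmem44, Limch1 and St6galnac3 (0.937 to 0.932), and for Pgf Adamts17, Rflna and Dzip1l (0.940 to 0.907). All points share the same 4 libraries, and a gene specific to 1 class gives high values by that class alone.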

How the data were processed

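Single-cell RNA from 4 libraries (2 NdpKO, 2 NdpWT) was counted by the authors as UMI counts per gene and barcode with Cell Ranger 6.1.2 on mm10, per the submitters' processing notes. The deposited counts are not normalised and total 123270687 and 125981161 UMIs in the NdpKO libraries and 114363848 and 121735724 in the NdpWT libraries. The sources used here do not state whether doublets or free RNA were removed, or whether counting used strand.

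The filter on cells required 500 genes, 1000 UMIs and a mitochondrial share of 10% or less. Scrublet in scanpy 1.11.5 called 2.07% to 2.91% as doublets, which were removed, below the 10.3% to 15.3% the loading would give, so doublets remain. Cells were scaled to 10000 UMIs, reduced to 2000 variable genes and 30 principal components without the 9 members, and clustered (20 shared neighbours, Leiden at resolution 1). Endothelial cells were clustered again with genes centred within each library. Naming a cluster required 3 markers of a type among its top 100 genes by fold, with no rival type ahead in the top 10.

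UMIs were summed per library and class. NdpKO was compared with NdpWT by edgeR 4.0.16 under R 4.3.3 (robust quasi-likelihood test, TMM factors, filterByExpr at 10 counts), and p-values were adjusted by Benjamini-Hochberg over all genes of a class, with a threshold of 0.05. The SE comes from the quasi-likelihood F. Classes needed 50 cells in every library and endothelial subtypes 30. CPM use plain totals, and Poisson intervals and the limit of 3 UMIs for a count of 0 cover counting error only. Libraries are pools. With 2 per genotype the p-values rest on a spread between pools that the robust quasi-likelihood fit takes in part from other genes. The tests were checked on simulated counts, where the share of false calls was above the nominal 5% in endothelial cells and both subtypes, so single calls near the threshold are less certain than their adjusted p.

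Every member is reported. From each list the genes called in endothelial cells were named (4 at most), or else the gene of lowest p, and the 3 genes most alike to each member. Members and lists were chosen with earlier results of these data known. Alternatives were no count filter, DESeq2 1.42.0, its size factors, the replicate block, leaving out each library, clustering with the members, stricter cell filters and leaving out sub-clusters, the last chosen after seeing the data. Sequences are from RefSeq and positions from GENCODE M21, which held 32158 of 32285 features.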

Additional observations from a re-analysis of the deposited data

Results flagged for a closer look

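The change of Vegfa with genotype differed between non-arterial and arterial endothelial cells by 2.44 on the log2 scale, by the test of the interaction (edgeR adjusted p = 0.00402), with both NdpKO libraries above both NdpWT libraries in non-arterial cells and an overlap in arterial cells. That of Nrp1 differed by 0.65 (edgeR adjusted p = 0.0350), with the same pattern over libraries. The part of non-arterial sub-cluster makeup in both differences was not tested. The Vegfa call was kept under 6 of 7 alternatives and lost without NdpWT replicate 2. The Nrp1 call was kept under 3 of 7 alternatives and lost without the unnamed sub-cluster (edgeR adjusted p = 0.736).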

How the results depend on the processing

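Of 574 log2 changes recomputed under the alternatives, 482 kept their direction and their side of the threshold, 32 passed it, 29 no longer passed it and 31 changed sign. Of 234 levels 217 stayed within 1 SD, and the Vegfa level of fibroblasts became 113 CPM with stricter cell filters. Without a count filter the members called were 2 in endothelial cells, 1 each in arachnoid barrier cells, fibroblasts and mural cells and 4 in the interaction. The genes called were then 775 in endothelial, 49 in arterial and 707 in non-arterial cells and 306 in the interaction, and 30 list genes were called, against 10. With DESeq2 the members called were 0 in endothelial cells and 1 in arachnoid barrier cells, and the genes called 2 in arterial and 237 in non-arterial cells, 129 in fibroblasts (edgeR 6), 22 in macrophages (edgeR 1), 17 in mural cells (edgeR 3), and 13 in arachnoid barrier, 6 in cycling, 4 in unnamed and 2 in monocytes or dendritic cells (edgeR 0 in each). Stricter cell filters gave 5 genes in arterial cells, clustering with the members gave 260 in the interaction, and leaving out the unnamed sub-cluster gave 244 in non-arterial cells and 177 in the interaction. The cause was not tested.

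The labels do not tie the replicate number to the litter match. Deviations of same-numbered libraries correlated at 0.0878 in endothelial, 0.120 in arterial and 0.181 in non-arterial cells, and from -0.203 to 0.374 over all classes. With the replicate block the members called were 2 in endothelial cells (Vegfa and Vegfc), 1 in arachnoid barrier cells, 2 in fibroblasts and 1 in mural cells. The genes called were 493 in endothelial, 59 in arterial and 821 in non-arterial cells, with 20 list genes.

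Leaving out 1 library at a time gave 0 to 2 members called in endothelial cells, 1 to 4 in non-arterial cells, 0 to 1 in fibroblasts, granule neurons, macrophages, mural cells and the cells with no type name, and 0 to 3 in the interaction. Genes called ran from 341 to 572 in endothelial, 2 to 62 in arterial and 287 to 595 in non-arterial cells and 33 to 270 in the interaction, with 9 to 19 list genes. Outside the endothelium they ran from 0 to 11 in arachnoid barrier cells, 0 to 80 in cycling cells, 0 to 3 in erythroid cells, 0 to 236 in fibroblasts, 1 to 68 in granule neurons, 6 to 93 in macrophages, 1 to 137 in monocytes or dendritic cells, 0 to 165 in mural cells, 1 to 74 in other neurons and 2 to 195 in the cells with no type name.

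Changes of sign were limited to members that were not called. In endothelial cells Vegfb became 0.0096 without the sub-clusters that carried other markers, and Pgf 0.0044 with DESeq2 and 0.0325 with the block. In arterial cells Vegfc became -0.0068 and Nrp1 -0.083 when clustered with the members, and Nrp1 -0.072 with stricter filters. In non-arterial cells Vegfb became -0.016 when clustered with the members, -0.16 with stricter filters and -0.058 without the unnamed sub-cluster. In the interaction Kdr became 0.12 when clustered with the members, and Flt4 -0.16 without the unnamed sub-cluster. Leaving out 1 library gave endothelial ranges of -0.45 to 0.86 (Pgf), -0.024 to 0.15 (Flt1), -0.67 to 0.0075 (Flt4) and -0.13 to 0.21 (Nrp2). Arterial ranges were -0.032 to 0.43 (Vegfa), -0.13 to 0.20 (Vegfc), -0.35 to 0.20 (Kdr), -0.87 to 0.17 (Flt4) and -0.010 to 0.16 (Nrp1). Non-arterial ranges were -0.079 to 0.12 (Vegfb), -0.30 to 1.41 (Vegfc) and -0.55 to 0.17 (Flt4), and interaction ranges -0.48 to 1.53 (Vegfc), -0.49 to 0.18 (Kdr) and -0.020 to 0.30 (Flt4).

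Depth limits Vegfa in the capillary, venous and unnamed sub-clusters, where a library had 0 to 39 UMIs, and Pgf throughout the endothelium.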

Other observations

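Astroglia were under 50 cells in some libraries and entered no test. Their Vegfa was 70.5 and 111 CPM in the NdpKO libraries and 101 and 33.2 CPM in the NdpWT libraries, and their Vegfb was 101 and 87.9 CPM in the NdpKO libraries and 135 and 188 CPM in the NdpWT libraries. In choroid plexus or ependymal cells Kdr was 117 and 15.5 CPM in the NdpKO libraries (41 and 1 UMIs) and 187 and 103 CPM in the NdpWT libraries (28 and 24 UMIs).

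Vegfd, the ligand outside the set that also binds FLT4, was low in endothelial cells, at 1.83 and 2.23 CPM in the NdpKO libraries and 1.89 and 1.74 CPM in the NdpWT libraries.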
